A study of Mus musculus with 6 samples.

Results

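The 10 genes described here encode costimulatory and checkpoint molecules through which a dendritic cell addresses T cells. They are *Cd40*, *Cd80*, *Cd86*, *Cd274*, *Pdcd1lg2*, *Icosl*, *Havcr2*, *Tnfsf9*, *Tnfsf4* and *Cd70*. They were chosen by name, and all 10 were found among the 54532 gene identifiers counted. Their RNA was measured in cDC1s, the conventional dendritic cells that cross-present antigen to CD8+ T cells. The cells were sorted from mouse bone marrow kept for 8 days with 80 ng/mL FLT3L, the cytokine that drives dendritic cell development. Of 6 libraries, 3 came from c-Jun/JunB fl/fl marrow, in which both Jun genes carry loxP sites but no Cre is present. The other 3 came from marrow labelled c-Jun/JunB fl/fl Itgax-Cre, called Δ/Δ here, in which the same floxed alleles are joined by Cre under the control of *Itgax* (CD11c) sequences. Mice in the study were between 8 and 16 weeks old. No stimulus beyond FLT3L is named in the labels. A supplementary legend of the study counts these libraries as individual mice, while the labels tie no library to an animal. With Cre under CD11c control, recombination depends on CD11c promoter activity.

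T cell activation requires a second signal beside antigen. CD80 and CD86 give it through CD28 and withdraw it through CTLA-4, and ICOS ligand acts on the related receptor ICOS. PD-L1, encoded by *Cd274*, and PD-L2, encoded by *Pdcd1lg2*, bind the inhibitory receptor PD-1. The TNF family ligands 4-1BBL (*Tnfsf9*), OX40L (*Tnfsf4*) and CD70 sustain T cells that are already activated, by binding 4-1BB, OX40 and CD27. *Cd40* and *Havcr2* are the exceptions in this group, since both encode receptors on the dendritic cell. CD40 takes up CD40 ligand from helper T cells and passes the signal to NF-κB, and TIM-3, the product of *Havcr2*, is an inhibitory receptor that cDC1s carry without stimulation. Dendritic cells raise most of these molecules when they mature.

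Libraries held 21693217 to 26788296 reads on genes. Levels are given as CPM, the counts scaled to these totals after each total was multiplied by its TMM normalization factor (0.989 to 1.01). The targeted genes served as a check of the labels. *Jun* was at 70.9, 52.4 and 63.1 CPM in fl/fl 1 to 3 and at 48.1, 44.2 and 60.4 CPM in Δ/Δ 1 to 3, ranges that overlapped (log2 fold change -0.29, SE 0.15, edgeR adjusted p = 0.345). *Junb* was at 314, 274 and 413 CPM in fl/fl and at 110, 171 and 211 CPM in Δ/Δ, lower in every Δ/Δ library but with an edgeR adjusted p of 0.0729. Counts over whole genes cannot tell a recombined from an intact transcript where part of the RNA remains. The sources name no exon that recombination removes. The study also measured both genes by RT-qPCR in cDC1s sorted from such FLT3L cultures. For cDC1s sorted from spleen and lymph nodes it reports their deletion by the same method. *Itgax* itself fell by 1.22 on the log2 scale (edgeR adjusted p = 0.0147). The cDC1 genes were abundant in all 6 libraries, with a summed level of 7244 to 9026 CPM over the list of 10, of which *Xcr1*, *Tlr3* and *Snx22* fell and 7 did not pass the test. Of 10 cDC2 genes, *Cd209a*, *Klf4* and *Cd4* rose and none fell. *Ccr9* of 7 pDC genes rose, as did *Adgre1* and *Ccr2* of 8 monocyte and macrophage genes, while none of the 11 genes tested from the lists for B cells, neutrophils, T and NK cells, and basophils and mast cells passed the test by edgeR (1 at an unadjusted p under 0.05, 1 called by DESeq2). In bulk RNA, fewer cells of a type and less RNA per cell cannot be told apart.

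Among the Δ/Δ libraries, replicates 1 and 2 stood apart from one another. The 18 genes of mature dendritic cells, such as *Ccr7*, *Fscn1* and *Ccl22*, had a summed level of 2195, 1617 and 1926 CPM in fl/fl 1 to 3, against 870 CPM in Δ/Δ 1, 3464 CPM in Δ/Δ 2 and 1137 CPM in Δ/Δ 3. Δ/Δ 2 was the highest of the 6 libraries for 15 of these 18 genes and Δ/Δ 1 the lowest for 14. Over all 12894 genes tested, Δ/Δ 2 was the highest for 18.6% and Δ/Δ 1 the lowest for 17.1%. Δ/Δ 2 also had the highest summed level of 6 basophil and mast cell genes, 16.8 CPM against 0.462 to 2.46 CPM in the other libraries, with *Mcpt8* at 4.80 CPM. Its 7 B cell genes came to 49.9 CPM, against 12.8 to 30.8 CPM elsewhere, with *Vpreb3* at 0 in every library. Values for the members are therefore given also without Δ/Δ 1 and without Δ/Δ 2. The summed level of mature dendritic cell genes in Δ/Δ 3 lay below the fl/fl range as well.

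The members spanned more than 2 orders of magnitude in fl/fl cDC1s. Levels can be compared between genes only per length, and they were divided by the length of all annotated exons of the gene. On this scale *Havcr2* was the most abundant, at 97.7 ± 4.43 CPM per kb (SD, n = 3), followed by *Cd86* at 51.6 ± 1.80 and *Icosl* at 38.2 ± 4.65 CPM per kb. *Tnfsf9* came next at 8.87 ± 0.685 CPM per kb. *Cd40* (3.99 ± 1.21), *Cd80* (3.81 ± 0.506) and *Cd274* (3.67 ± 1.02 CPM per kb) overlapped in their ranges and had no order among themselves. The same held for the 3 rarest, *Pdcd1lg2* at 0.319 ± 0.0421, *Cd70* at 0.304 ± 0.194 and *Tnfsf4* at 0.257 ± 0.123 CPM per kb. At every other step in this order the ranges of the 3 fl/fl libraries did not overlap. In Δ/Δ libraries *Cd86* (50.6 to 60.7 CPM per kb) and *Icosl* (35.7 to 57.7 CPM per kb) overlapped, and *Tnfsf9*, at 17.2 to 17.4 CPM per kb, stood above *Cd40* in every library. *Havcr2*, *Icosl* and *Cd86* together held 91.4 to 93.0% of the summed CPM of the 10 members in fl/fl. They held 92.0%, 83.8% and 91.6% in Δ/Δ 1, 2 and 3.

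**Figure D1:**
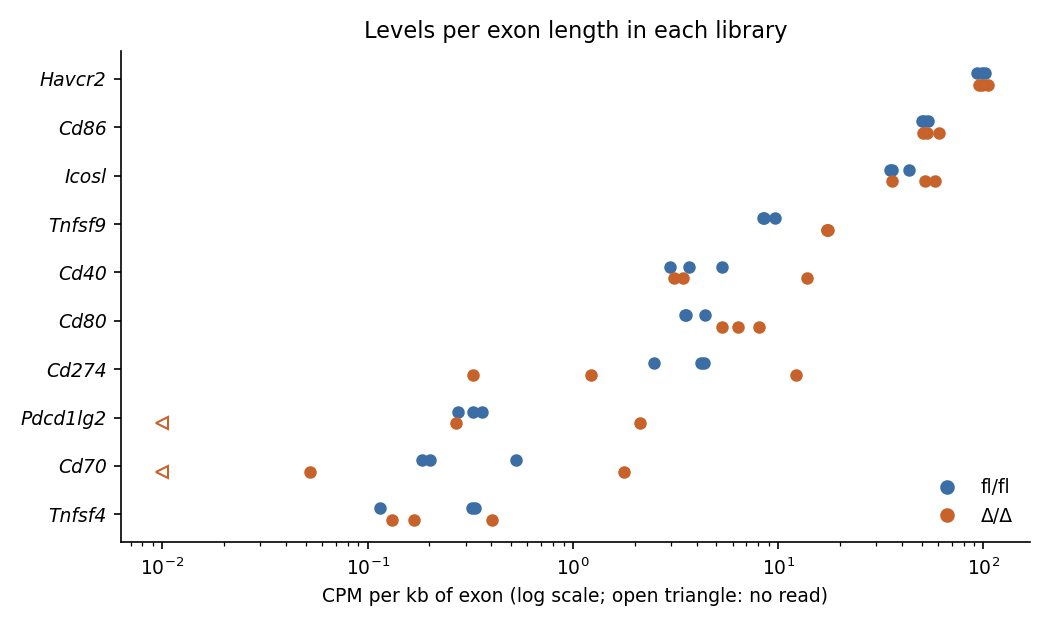
Level of each member in CPM per kb of exon (horizontal log axis) in each of the 3 fl/fl (blue) and 3 Δ/Δ (orange) libraries, ordered by the fl/fl mean. An open triangle at the left edge marks a library without a read, which occurred for *Pdcd1lg2* and *Cd70* in Δ/Δ 1. *Havcr2*, *Cd86* and *Icosl* lie between 35.2 and 106 CPM per kb in every library.

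Of the 10 members, 9 passed the filter on low counts and were tested, and *Cd70* did not. *Tnfsf9* alone passed an adjusted p of 0.05 and rose. Of all 12894 genes tested, 3.88% passed in either direction and 2.03% passed as higher in Δ/Δ. In either direction 500 genes passed, against 1104 with DESeq2, 1320 without Δ/Δ 1 and 719 without Δ/Δ 2. *Tnfsf9* and *Cd80* were higher in each Δ/Δ library than in every fl/fl library, as were 13.7% of all genes tested, and none of the 9 members was lower in this way, as were 12.3% of all genes. The median log2 fold change of the 9 tested members was 0.34, against 0.0018 over all genes. For the same 9 genes it was 0.88 without Δ/Δ 1 and -0.02 without Δ/Δ 2. Δ/Δ 2 was the highest library for 8 of these 9 genes, all except *Tnfsf9*, and for *Cd70*.

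**Figure D2:**
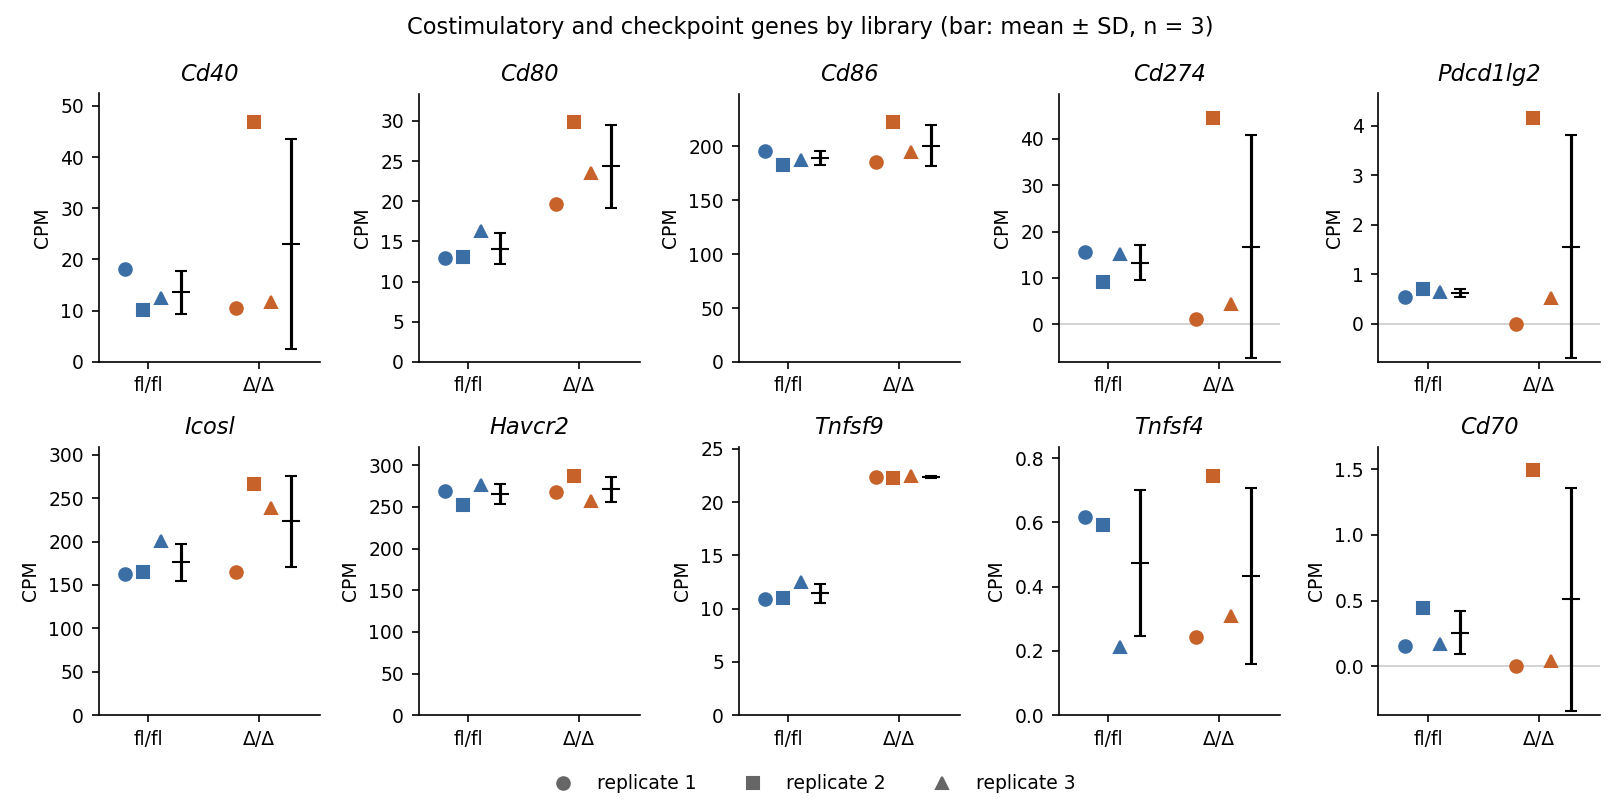
CPM (vertical axes, a separate scale for each gene) of the 10 members in 3 fl/fl (blue) and 3 Δ/Δ (orange) libraries, with the replicate number as the symbol and a black bar for mean ± SD. *Tnfsf9* lies between 22.2 and 22.5 CPM in Δ/Δ and between 10.9 and 12.5 CPM in fl/fl. The square of Δ/Δ 2 stands above all other points for *Cd40*, *Cd274*, *Pdcd1lg2* and *Cd70*.

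*Tnfsf9* (ENSMUSG00000035678.8, chr17:57105325-57107757 on the plus strand, GRCm38) encodes 4-1BBL, the ligand that prolongs the response of CD8+ T cells through 4-1BB. Its level was 10.9, 11.0 and 12.5 CPM in fl/fl 1 to 3 and 22.4, 22.2 and 22.5 CPM in Δ/Δ 1 to 3. The 3 Δ/Δ libraries were nearly equal, and the lowest of them was well above the highest fl/fl library. These levels rest on 282, 297 and 294 reads in fl/fl and on 552, 477 and 511 reads in Δ/Δ. Counting error on such numbers is larger than the differences among the Δ/Δ levels. Their near equality is therefore no measure of the spread between replicates. *Tnfsf9* thus rose 1.95-fold (95% interval 1.66 to 2.31), a log2 fold change of 0.97 with an SE of 0.10 and an edgeR adjusted p of 0.00472. Without Δ/Δ 1 the log2 fold change was 0.97 (edgeR adjusted p = 0.00517) and without Δ/Δ 2 it was 0.97 (edgeR adjusted p = 0.00965). Without Δ/Δ 3 the log2 fold change was 0.96 (edgeR adjusted p = 0.0155). All 3 Δ/Δ libraries lay outside the fl/fl range in the summed level of mature dendritic cell genes. Δ/Δ 2 was above that range, and Δ/Δ 1 and Δ/Δ 3 were below it. The non-coding gene *Gm11110* overlaps the start of *Tnfsf9* on the other strand, and as the strand setting of the counts is not stated, their reads may not be fully separated. *Gm11110* had 139, 182 and 123 reads in fl/fl and 156, 131 and 159 reads in Δ/Δ, ranges that overlapped.

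CD80 and CD86 share their receptors, and their genes lie on chromosome 16 with 25 annotated coding genes between them. *Cd80* (ENSMUSG00000075122.5, chr16:38455561-38496335, plus strand) was at 12.9, 13.1 and 16.3 CPM in fl/fl and at 19.6, 29.8 and 23.5 CPM in Δ/Δ. The genotypes did not overlap, with Δ/Δ 2 the highest. The difference was 1.72-fold (95% interval 1.29 to 2.30), with a log2 fold change of 0.79, an SE of 0.18 and an edgeR adjusted p of 0.0606, so that *Cd80* did not pass the test. With DESeq2 it passed (adjusted p = 0.00212). It passed without Δ/Δ 1 (log2 fold change 0.92, edgeR adjusted p = 0.0146) and not without Δ/Δ 2 (0.61, edgeR adjusted p = 0.0758). *Cd86* (ENSMUSG00000022901.13, chr16:36603869-36666081, minus strand) was at 196, 183 and 187 CPM in fl/fl and at 185, 222 and 195 CPM in Δ/Δ. The genotypes overlapped, and 4423 to 5088 reads in each library lay on the gene. Its fold difference was 1.06 with a 95% interval of 0.935 to 1.21 (edgeR adjusted p = 0.581). The log2 fold change of *Cd86* was 0.14 without Δ/Δ 1 and 0.01 without Δ/Δ 2.

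AP-1 is the factor of which c-Jun and JunB are subunits, and its binding was not tested here. The upstream sequences of *Cd80* and *Havcr2* are shown because both hold the letters of its motif. That of *Cd274* is shown as that of a gene with a wide spread among Δ/Δ libraries. Each runs over 250 bases before the RefSeq start site, 5′ to 3′ on the plus strand of GRCm38.p6, with motif matches in capitals. For *Cd80* this RefSeq start site lies inside the gene as annotated by GENCODE, which begins at 38455561. The *Cd80* window, from 38458683, is therefore within the annotated gene and not before it.
Cd80, chr16:38458683-38458932: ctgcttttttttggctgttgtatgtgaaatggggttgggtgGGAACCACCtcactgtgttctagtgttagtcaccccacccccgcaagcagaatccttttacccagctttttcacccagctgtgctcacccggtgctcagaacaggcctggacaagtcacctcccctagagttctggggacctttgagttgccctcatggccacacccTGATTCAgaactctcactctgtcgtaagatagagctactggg
Havcr2, chr11:46454681-46454930: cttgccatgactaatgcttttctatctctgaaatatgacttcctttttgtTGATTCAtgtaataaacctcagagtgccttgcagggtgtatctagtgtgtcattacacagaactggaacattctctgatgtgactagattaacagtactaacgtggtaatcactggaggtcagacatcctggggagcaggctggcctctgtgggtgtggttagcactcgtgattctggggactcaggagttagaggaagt
Cd274, chr19:29367188-29367437: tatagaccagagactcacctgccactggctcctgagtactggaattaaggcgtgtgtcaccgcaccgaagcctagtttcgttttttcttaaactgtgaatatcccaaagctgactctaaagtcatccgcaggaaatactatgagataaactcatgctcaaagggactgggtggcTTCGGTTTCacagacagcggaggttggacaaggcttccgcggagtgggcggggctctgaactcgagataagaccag
Motifs were searched on both strands in the 5 members that the RefSeq promoter table held, which were these 3, *Pdcd1lg2* and *Icosl*. The AP-1 letters TGANTCA occurred in *Cd80* at bases -42 to -36 from the RefSeq start site and in *Havcr2* at -200 to -194. Of all 32851 promoters in the table, 6.75% held them. In *Cd80* the kB letters GGNNNTTCC matched on the minus strand at -209 to -201, a motif present in 15.7% of promoters. The interferon-stimulated response element, with the letters GAAANNGAA, matched on the minus strand of *Cd274* at -76 to -68 and occurred in 7.13% of promoters. The cAMP response element TGACGTCA (1.55% of promoters) and the gamma-activated site TTCNNNGAA (7.02%) were in none of the 5, and *Pdcd1lg2* and *Icosl* held none of the motifs. A match describes letters and not a bound site. *Cd40*, *Cd86*, *Tnfsf9*, *Tnfsf4* and *Cd70* were not matched in the table.

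*Icosl* (ENSMUSG00000000732.9, chr10:78069302-78083913, plus strand) encodes the ligand of ICOS, through which follicular helper and other effector T cells are costimulated. It was at 163, 165 and 201 CPM in fl/fl and at 165, 267 and 239 CPM in Δ/Δ. Δ/Δ 1 lay within the fl/fl range and Δ/Δ 2 and Δ/Δ 3 above it. The difference was 1.27-fold (95% interval 0.950 to 1.69, edgeR adjusted p = 0.344). Without Δ/Δ 1 the log2 fold change was 0.52 and *Icosl* passed the test (edgeR adjusted p = 0.0266), and without Δ/Δ 2 it was 0.19 (edgeR adjusted p = 0.573).

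*Havcr2* (ENSMUSG00000020399.14, chr11:46454935-46481255, plus strand) was at 269, 253 and 276 CPM in fl/fl and at 268, 288 and 257 CPM in Δ/Δ. The libraries of both genotypes were interleaved. The fold difference was 1.02, with a 95% interval of 0.917 to 1.13 (edgeR adjusted p = 0.848), the narrowest interval among the 9 tested members on the log2 scale. *Lgals9*, which encodes galectin-9, a ligand of TIM-3, was at 62.1, 59.9 and 45.3 CPM in fl/fl and at 28.1, 17.6 and 25.3 CPM in Δ/Δ. It fell by 1.24 on the log2 scale (SE 0.20, edgeR adjusted p = 0.0202), without overlap between the genotypes. *Lgals9* also passed without Δ/Δ 1 (log2 fold change -1.38) and without Δ/Δ 2 (-1.06), but not when fl/fl 1, fl/fl 2 or Δ/Δ 3 was left out.

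**Figure D3:**
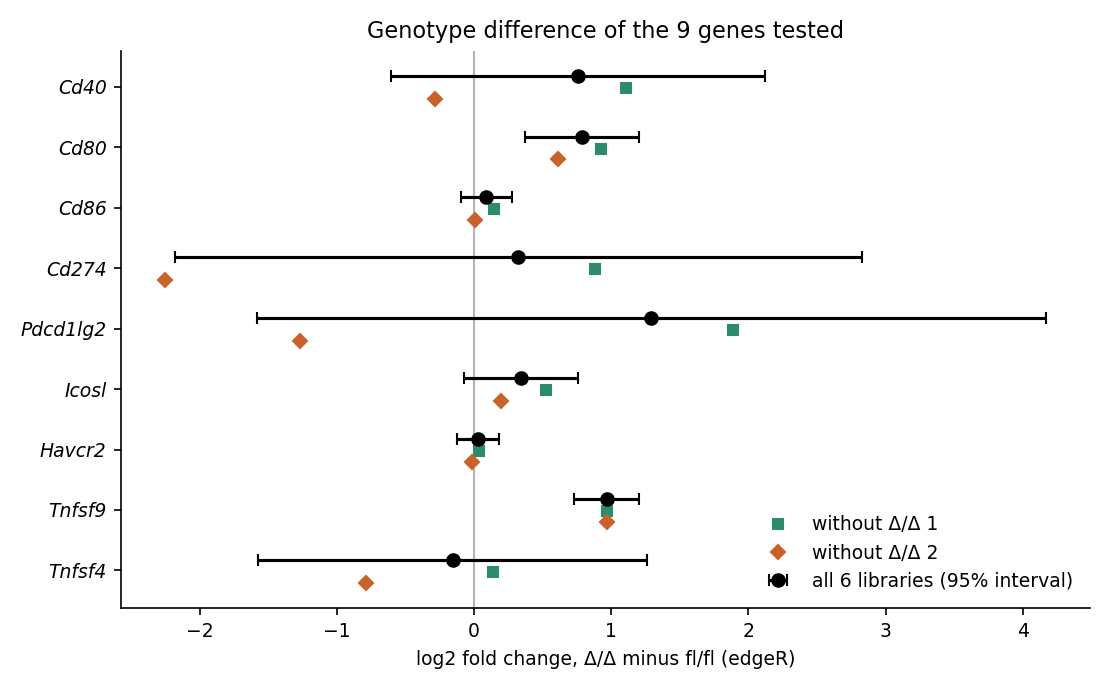
Log2 fold change of Δ/Δ against fl/fl (horizontal axis) for the 9 tested members, from all 6 libraries with its 95% interval (black), without Δ/Δ 1 (green squares) and without Δ/Δ 2 (orange diamonds). The 3 estimates of *Tnfsf9* coincide at 0.97, while *Cd274* moves from 0.88 to -2.25.

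*Cd274* (ENSMUSG00000016496.7, chr19:29367455-29388095, plus strand) and *Pdcd1lg2* (ENSMUSG00000016498.9, chr19:29410919-29471161, plus strand), the genes of the PD-1 ligands, are neighbours, with 22823 bases and no annotated coding gene between them. *Cd274* was at 15.7, 9.04 and 15.2 CPM in fl/fl and at 1.18, 44.5 and 4.44 CPM in Δ/Δ. The Δ/Δ libraries lay on either side of the fl/fl range, with a 37.8-fold gap between Δ/Δ 2 and Δ/Δ 1. The counts behind this were 29, 954 and 101 reads in Δ/Δ. Over all 6 libraries the fold difference was 1.25 with a 95% interval of 0.221 to 7.08 (edgeR adjusted p = 0.899). Without Δ/Δ 2 the log2 fold change turned to -2.25 (SE 0.54, edgeR adjusted p = 0.0661), and without Δ/Δ 1 it was 0.88 (edgeR adjusted p = 0.509).

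*Pdcd1lg2* had 14, 19 and 15 reads in fl/fl and 0, 89 and 12 reads in Δ/Δ. That is 0.539, 0.704 and 0.636 CPM in fl/fl and 0, 4.15 and 0.528 CPM in Δ/Δ. By counting error, 0 reads allows up to 0.123 CPM in Δ/Δ 1, a limit scaled to the read total alone. Δ/Δ 2 was again the highest and Δ/Δ 1 the lowest library, and *Cd274* and *Pdcd1lg2* were the only tested members with this order, which 5.39% of all genes tested had. The log2 fold change of *Pdcd1lg2* was 1.29 (SE 1.22, edgeR adjusted p = 0.604), 1.89 without Δ/Δ 1 and -1.27 without Δ/Δ 2. The non-coding antisense gene *A930007I19Rik* overlaps *Pdcd1lg2* and had 4 to 15 reads in each library.

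*Cd40* (ENSMUSG00000017652.16, chr2:165055627-165072948, plus strand) was at 18.1, 10.1 and 12.5 CPM in fl/fl and at 10.6, 46.8 and 11.7 CPM in Δ/Δ. Δ/Δ 1 and Δ/Δ 3 lay within the fl/fl range, and Δ/Δ 2 was 3.45 times the fl/fl mean. The fold difference of 1.69 had a 95% interval of 0.659 to 4.36 (edgeR adjusted p = 0.514). The log2 fold change of *Cd40* was 1.11 without Δ/Δ 1 and -0.28 without Δ/Δ 2.

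*Cd70* (ENSMUSG00000019489.7, chr17:57145997-57149777, minus strand) lies 38239 bases from *Tnfsf9* with no annotated coding gene between them. It had 4, 12 and 4 reads in fl/fl and 0, 32 and 1 reads in Δ/Δ, or at most 1.49 CPM. Most of its reads were in Δ/Δ 2, which is the library with the most reads for *Pdcd1lg2* as well. *Tnfsf4* (ENSMUSG00000026700.4, chr1:161395409-161418410, plus strand) had 16, 16 and 5 reads in fl/fl and 6, 16 and 7 reads in Δ/Δ. Its libraries overlapped, and the fold difference of 0.897 had a 95% interval of 0.336 to 2.40 (edgeR adjusted p = 0.917). Neither a rise nor a fall of 2-fold could thus be excluded. The log2 fold change of *Tnfsf4* was 0.14 without Δ/Δ 1 and -0.79 without Δ/Δ 2.

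*Cd40*, *Cd274*, *Pdcd1lg2* and *Cd70* were picked as the 4 members at more than 3 times their fl/fl mean in Δ/Δ 2. That library also had the highest summed level of mature dendritic cell genes, so the picking fixed this match. In Δ/Δ 1 and Δ/Δ 3, where that sum was lowest, *Cd40* stayed within its fl/fl range. There *Cd274*, *Pdcd1lg2* and *Cd70* were below theirs. *Ccr7*, the receptor that takes dendritic cells to lymph nodes, was at 221, 151 and 160 CPM in fl/fl and at 26.8, 376 and 60.7 CPM in Δ/Δ. *Ccl22*, a chemokine that attracts regulatory T cells, was at 145, 104 and 152 CPM in fl/fl and at 11.0, 271 and 23.5 CPM in Δ/Δ. In both genes, as in *Cd274*, Δ/Δ 2 was above and Δ/Δ 1 and Δ/Δ 3 were below the fl/fl range. *Ccr7* and *Ccl22* were picked after their values were seen. Of the 18 genes, 12 were highest in Δ/Δ 2 and lowest in Δ/Δ 1. Over all 6 libraries *Il15*, the cytokine that dendritic cells present to CD8+ T and NK cells, fell by 1.27 on the log2 scale (edgeR adjusted p = 0.0196) and the other 17 did not pass by edgeR, with a list median of -0.27 and 2 genes called by DESeq2. *Il15* was at 5.43, 4.61 and 3.30 CPM in Δ/Δ and at 10.5 to 11.2 CPM in fl/fl, and its level in Δ/Δ 2 was below the fl/fl range. *Il15* did not pass when any 1 of the fl/fl libraries was left out. The genes of the list with the highest mean CPM were *Tmem123* (log2 fold change -0.38), *Marcksl1* (1.11, edgeR adjusted p = 0.0672) and *Cd83* (-0.06). Without Δ/Δ 2 the median of the 18 genes was -1.74, with 13 past the adjusted p, and without Δ/Δ 1 it was 0.13, with 2 past (*Il15* and *Marcksl1*). Over all genes, 719 passed without Δ/Δ 2 and 1320 without Δ/Δ 1. The part of mature dendritic cells, of basophil and mast cell RNA and of B cell RNA in the member levels of Δ/Δ 2 was not tested.

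**Figure D4:**
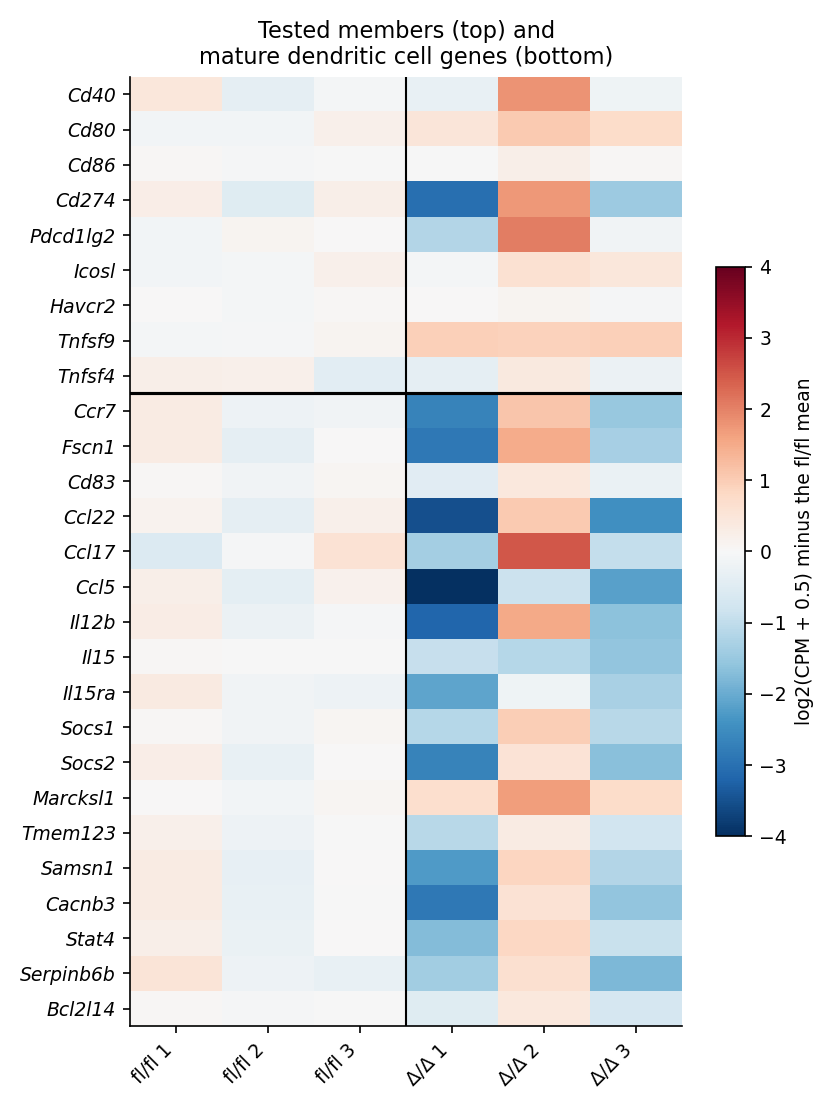
Log2 of CPM plus 0.5, minus the mean of the 3 fl/fl libraries, for the 9 tested members (above the line) and 18 mature dendritic cell genes (below it) in each library, with red higher and blue lower. Δ/Δ 2 is red and Δ/Δ 1 and Δ/Δ 3 are blue for *Cd274* and for most mature dendritic cell genes, while *Tnfsf9* has nearly the same shade in all 3 Δ/Δ libraries.

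Of 25 other costimulatory and inhibitory ligands, 15 were tested, *Lgals9* fell and none rose by edgeR, and the median log2 fold change was 0.06. DESeq2 called 4, with *Tnfsf14*, *Cd48* and *Timd4* as higher beside *Lgals9* as lower. The genes of highest mean CPM, which is not a level per length, were *Vsir*, *Cd48* and *Icam1*. *Vsir*, which encodes the inhibitory ligand VISTA, was at 169 to 174 CPM in fl/fl and at 177 to 241 CPM in Δ/Δ (log2 fold change 0.26, edgeR adjusted p = 0.246). *Cd48*, whose product binds 2B4 and CD2, was at 149 to 159 CPM in fl/fl and at 170 to 184 CPM in Δ/Δ (0.21, edgeR adjusted p = 0.101). Neither passed by edgeR, though in both the genotypes did not overlap. *Icam1*, the ligand of LFA-1, was at 126 to 153 CPM in fl/fl and at 140 to 233 CPM in Δ/Δ (0.35, edgeR adjusted p = 0.367). Without Δ/Δ 1, *Lgals9* passed as lower and *Vsir* and *Timd4* as higher. Without Δ/Δ 2, *Lgals9* and *Cd200* passed as lower and *Tnfsf14* as higher.

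A further list of 17 genes held mainly receptors found on T cells, and also *Cd40lg*, the gene of CD40 ligand. Of these 17 genes, 13 were tested and none passed the adjusted p by edgeR. At an unadjusted p under 0.05 there were 3 of 13, against 19.4% of all genes tested, and DESeq2 called 1. The median log2 fold change was -0.01. The 3 of highest mean CPM were *Btla*, *Cd226* and *Tnfrsf18*. *Btla*, an inhibitory receptor that cDC1s themselves express, was at 486 to 519 CPM in fl/fl and at 571 to 736 CPM in Δ/Δ (log2 fold change 0.35, edgeR adjusted p = 0.102), and it passed without Δ/Δ 1 (edgeR adjusted p = 0.0246). *Cd226* was at 38.5 to 44.8 CPM in fl/fl and at 23.2 to 35.7 CPM in Δ/Δ (-0.45, edgeR adjusted p = 0.181). *Tnfrsf18* was at 20.3 to 25.1 CPM in fl/fl and at 19.1 to 27.7 CPM in Δ/Δ (0.14, edgeR adjusted p = 0.691). The receptor of the 4-1BB ligand, *Tnfrsf9*, is named as the partner of *Tnfsf9* and after its values were seen. It was at 9.63, 3.96 and 3.48 CPM in fl/fl and at 0.568, 2.98 and 1.89 CPM in Δ/Δ, lower in every Δ/Δ library but with an edgeR adjusted p of 0.210. The 8 T and NK cell marker genes had a summed level of 1.62 to 4.05 CPM in all libraries.

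Of 20 genes of CD40 and NF-κB signalling, all 20 were tested and none passed the adjusted p by edgeR. At an unadjusted p under 0.05 there were 7 of 20, against 19.4% of all genes tested, and DESeq2 called 3. The median log2 fold change was 0.11, and Δ/Δ 2 was the highest library for 14 of the 20. *Nfkb1*, which encodes the p50 subunit, was at 307 to 330 CPM in fl/fl and at 356 to 444 CPM in Δ/Δ (log2 fold change 0.37, edgeR adjusted p = 0.0776). *Ikbkb* (0.27, edgeR adjusted p = 0.206) and *Chuk* (-0.11, edgeR adjusted p = 0.290), the kinases that free NF-κB from its inhibitors, followed in mean CPM. Without Δ/Δ 1, 5 genes passed (*Nfkb1*, *Ikbkb*, *Traf5*, *Nfkbie* and *Birc3*, all higher), and without Δ/Δ 2 only *Traf1* passed, as lower.

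**Figure D5:**
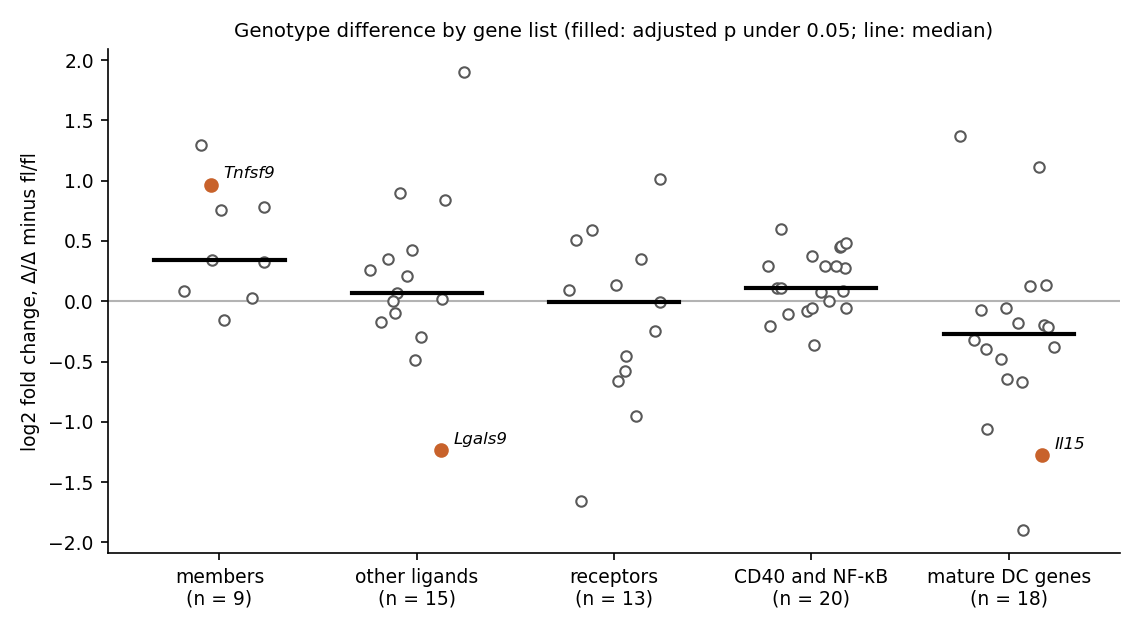
Log2 fold change of Δ/Δ against fl/fl (vertical axis) for each tested gene of the 5 lists, with the list median as a black line and genes with an edgeR adjusted p under 0.05 filled in orange. The filled points are *Tnfsf9* (0.97), *Lgals9* (-1.24) and *Il15* (-1.27), and the list medians run from -0.27 to 0.34.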

How the data were processed

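Poly(A) RNA of sorted cDC1s was sequenced from directional libraries. The authors aligned the reads with STAR 2.6.1a and deposited raw counts per gene and library (GRCm38), without normalization. Which strand column was taken is not stated. Of 54532 identifiers, 54409 were named from GENCODE M21. STAR's tallies of reads off genes stayed out, leaving 79.1 to 79.7% of all reads. No pair of replicates agreed within sampling noise (chi-square per degree of freedom 6.35 to 38.5). Limits from 0 reads (3 reads) cover counting error only.

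Counts were tested on genotype with edgeR 4.0.16 in R 4.3.3 (TMM, filterByExpr with a minimum count of 10 and total of 15, quasi-likelihood test, 2-sided), adjusted by Benjamini-Hochberg over 12894 genes with a threshold of 0.05. The script was tested on simulated data. Alternatives were DESeq2 1.42.0 (size factors, Wald test), limma-voom (limma 3.58.1), no filter, a stricter filter, a replicate block, a log2 fold limit of 1, each library left out, and a covariate of mature dendritic cell genes, which was added after the data were seen. Beside all members, the called genes and the 3 genes of highest mean CPM in each pathway list, *Jun*, *Junb* and *Itgax* are named. Members and lists were chosen with earlier results of these data known.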

Additional observations from a re-analysis of the deposited data

How the results depend on the processing

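*Tnfsf9* passed the adjusted p in all 13 alternative fits, with log2 fold changes of 0.93 to 1.03 and edgeR, DESeq2 or limma adjusted p of at most 0.0472. The number of genes past the adjusted p, 500, became 1104 with DESeq2, 762 without the filter, 797 with the covariate and 240 with the log2 fold limit, and ran from 95 to 1320 with 1 library left out, highest without Δ/Δ 1 and 95 without fl/fl 1 or fl/fl 2. The number of members past it, 1, became 2 with DESeq2, 2 without the filter, 3 with the covariate, 0 with the log2 fold limit and 1 to 3 with 1 library left out. The second was *Cd80* (adjusted p = 0.00212 with DESeq2, 0.0252 with edgeR without the filter and 0.0128 with the covariate), and the third with the covariate was *Cd40* (edgeR adjusted p = 0.0236). The median of the members ran from -0.017 to 0.90 with 1 library left out, the latter without Δ/Δ 1, where *Cd70* passed the filter and was included. *Cd274* reversed to -1.15 with limma-voom, to -1.04 with the replicate block and to -2.25 without Δ/Δ 2 (up to 0.88 with another library left out), and *Pdcd1lg2* to -0.95 with limma-voom and -1.27 without Δ/Δ 2 (up to 1.89). *Cd40* ran from -0.28 to 1.11, *Havcr2* from -0.017 to 0.064 and *Tnfsf4* from -0.79 to 0.14 with 1 library left out, and *Tnfsf4* was 0.18 with the covariate.

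Replicate numbers were not shown to pair the libraries, and with 3 libraries a genotype the correlations cannot exclude a pairing. Deviations of same-numbered libraries from their genotype means correlated across genes at 0.09, -0.15 and 0.20. The libraries fl/fl 1, fl/fl 3 and Δ/Δ 3 correlated best with their own number, while fl/fl 2, Δ/Δ 1 and Δ/Δ 2 did not. With the replicate block 417 genes passed the adjusted p, 345 of them among the 500, and *Tnfsf9* remained past it (edgeR adjusted p = 0.0178).

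With 3 libraries a genotype, the 95% intervals of *Cd274*, *Pdcd1lg2* and *Tnfsf4* hold changes of 2-fold in either direction. *Pdcd1lg2*, *Tnfsf4* and *Cd70* rest on fewer than 100 reads in each library.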

Other observations

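Ratios of CPM between partner genes within a library, picked after their values were seen and given without a test, separated the genotypes in several pairs. *Cd80*, *Tnfsf9*, *Tnfrsf9* and *Lgals9* each separated the genotypes alone, so the ratios that hold them repeat this. *Cd86* over *Cd80* was 15.1, 14.0 and 11.5 in fl/fl 1 to 3 and 9.44, 7.45 and 8.27 in Δ/Δ 1 to 3, so that each Δ/Δ library held relatively more *Cd80* for its *Cd86*. *Tnfsf9* over *Tnfrsf9*, a ligand over its receptor, was 1.13, 2.78 and 3.59 in fl/fl and 39.4, 7.45 and 11.9 in Δ/Δ. *Havcr2* over *Lgals9* was 4.32, 4.22 and 6.10 in fl/fl and 9.53, 16.4 and 10.2 in Δ/Δ, with *Havcr2* at 253 to 288 CPM in all libraries. *Cd274* over *Pdcd1lg2* was 29.1, 12.8 and 23.9 in fl/fl and 10.7 and 8.42 in Δ/Δ 2 and Δ/Δ 3, with no ratio in Δ/Δ 1, where *Pdcd1lg2* had 0 reads.

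*Tnfsf14*, a ligand gene 39714 bases from *Cd70*, was at 6.47, 4.48 and 6.27 CPM in fl/fl and at 12.4, 6.48 and 13.2 CPM in Δ/Δ (log2 fold change 0.90, edgeR adjusted p = 0.156). It was named after its values were seen. *Tnfsf14* passed the test without Δ/Δ 2 (1.16, edgeR adjusted p = 0.0255).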
